A study of Homo sapiens with 9 samples.

Results

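The 37 genes described here serve antioxidant defence and were chosen by name from the 60671 genes in each deposited table: the sensor and transcription factors of the oxidative stress response, and the genes of glutathione, thioredoxin, NADPH supply, iron storage, peroxide and superoxide removal, and conjugate export. All 37 had a row in every table, and all 37 were among the 19812 genes with enough reads to be tested. The study measured total RNA by sequencing in C28/I2 cells, human chondrocytes immortalised for culture, to ask what carbonic anhydrase 2 (CA2) does for the metabolism of cartilage cells. Of its 9 libraries, 3 are labelled Control, 3 Scrambled and 3 CA2 shRNA (a short hairpin RNA against CA2), and the labels speak of transduction only for the hairpin. The sources used here give neither the hairpin sequences, nor the time after transduction, nor what was done to the Control cells, and all groups are cultures of 1 cell line. The labels do not state that replicates were cultured separately. The p-values therefore measure only how these libraries vary, which may be technical.

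NRF2, encoded by NFE2L2, is the main transcription factor of the antioxidant response. In unstressed cells KEAP1 holds it and presents it for degradation. When KEAP1 is oxidised, NRF2 enters the nucleus, pairs with a small MAF protein such as MAFG and binds antioxidant response elements, which BACH1 otherwise occupies as a repressor. Its classical targets make glutathione and thioredoxin, reduce quinones, degrade heme, store iron and export glutathione conjugates, and the pentose phosphate pathway supplies NADPH, the electron donor of these systems. In cartilage, oxidative stress in chondrocytes is a long-studied feature of osteoarthritis.

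CA2 itself checks the labels. Its level is given as CPM, the read count relative to the library's total after scaling with TMM factors, as are all levels here unless RPKM is named. CA2 was low in every library, at 1.82 to 2.31 CPM in the 6 control libraries and at 0.905 to 1.4 CPM in the 3 CA2 shRNA ones, which lay below all others. Against Scrambled the log2 change was -0.77 (SE 0.23, adjusted p = 0.0276), and against Control it was -0.86 (SE 0.23, adjusted p = 0.0159), both by edgeR's quasi-likelihood test with Benjamini-Hochberg adjustment over all genes, with a threshold of 0.05. The first call did not survive leaving out CA2 shRNA 3 (0.109), Scrambled 3 (0.103), CA2 shRNA 2 (0.1003) or Scrambled 2 (0.0533), nor the second leaving out CA2 shRNA 3 (0.0759), CA2 shRNA 2 (0.0665) or Control 1 (0.0531). Without a filter on low counts the call against Scrambled was lost too (0.0544).

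Library totals ran from 16994368 counts in CA2 shRNA 2 to 34261244 in Control 3, and the 37 genes took between 0.736% and 0.846% of a library's counts. Control 3 and Scrambled 2 stood apart from the rest, with mitochondrial shares of 4.06% and 4.08% against 5.55% to 6.86% elsewhere and with the nuclear RNA NEAT1 at 159.2 and 233.4 CPM against 266 to 680.0 CPM. SOX9, the chondrocyte transcription factor, was at 81.7 to 105 CPM. The cartilage matrix genes COL2A1 (1.45 to 2.23 CPM) and ACAN (0.402 to 1.17 CPM) were low, and HAPLN1 had at most 0.0488 CPM, so the labelled cell type rests here on SOX9 and on MATN3 (10.5 to 13.6 CPM). The summed level of the 9 chondrocyte markers, 4 of which reached 1 CPM, was 101 to 116 CPM in Control, 108 to 112 in Scrambled and 120 to 122 in CA2 shRNA, and that of the 3 neural markers, which all reached 1 CPM, was 21.6 to 23.2, 22.4 to 25.3 and 13.9 to 16.6 CPM, most of it SNAP25. The chondrocyte sum is mostly SOX9, which rose by 0.20 on the log2 scale in both comparisons (adjusted p = 0.0364 and 0.0381), while COMP, a cartilage matrix gene, fell (log2 change -0.86, adjusted p = 0.0161 against Scrambled, and -0.83, adjusted p = 0.0215 against Control). The SOX9 calls held in 13 and 14 of the 19 alternatives and those of COMP in 18 and 15, and the part of these in the changes below was not tested. Summed over each list and given for Control, then Scrambled, then CA2 shRNA, immune markers reached 2.18 to 2.32, 2.25 to 3.06 and 1.99 to 2.63 CPM (mostly CD14), endothelial ones 3.64 to 4.16, 3.82 to 4.53 and 3.98 to 4.75 (mostly VWF), and fat and muscle ones at most 1.39. Epithelial markers summed to 94.2 to 99, 95.5 to 102 and 98.1 to 118 CPM, nearly all of it the keratin KRT18, and EPCAM stayed below 1 CPM.

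With CA2 shRNA, the antioxidant genes that passed the test were mostly higher by small amounts. The largest decrease was that of GCLM, a gene of glutathione synthesis, while the other 4 genes of glutathione synthesis and recycling did not pass. Against Scrambled, 10 of the 37 genes rose and 2 fell. KEAP1, BACH1, TXN, TXN2, NQO1, GPX1, PRDX5, SOD2, CAT and GSTO1 rose, by 0.19 to 0.50 on the log2 scale, and GCLM and ABCC1 fell. In RNA from a whole culture, a change per cell and a change in the number of cells that express a gene cannot be told apart. The background over all 19812 genes was 16.9% called, 8.02% higher and 8.88% lower. The 37 genes stood at 32.4% called, 27.0% higher and 5.41% lower. Their median log2 change was 0.13, beside -0.03 over all genes, and 28 of them lay above 0, as did 46.25% of all genes. The shares over all genes are not matched for level, and genes with few reads are harder to call. Among the 16251 genes with at least 1 CPM in 3 libraries, 1972 rose and 1696 fell, with a median log2 change of 0.01. In that setting PRDX1, PRDX4 and SOD1 passed as well.

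Against Control, 7 of the 37 rose and 2 fell. BACH1, NQO1, GPX1, PRDX5, SOD2, CAT and GSTO1 rose and GCLM and ABCC1 fell. Here 14.7% of all genes were called, 6.41% higher and 8.26% lower, beside 24.3%, 18.9% and 5.41% of the 37. The median was 0.10 for the 37 and 0.00 for all genes, and 27 of the 37 lay above 0, as did 49.3% of all genes. Among the 16251 genes with at least 1 CPM in 3 libraries, 1674 rose and 1557 fell, with a median of 0.02. In that setting KEAP1, TXN and TXN2 passed as well. The 9 genes called in the main fit passed with 1 sign in both comparisons, which share the CA2 shRNA libraries. Over all genes, 5.49% rose in both and 6.98% fell in both. Between Scrambled and Control none of the 37 passed with edgeR or with DESeq2, with 0 at an unadjusted p under 0.05. That comparison called 0% of all genes, and the log2 changes of the 37 lay between -0.17 and 0.12. Of these changes 30 lay below 0 and 7 above, with a median of -0.03. Over all genes 50.8% lay above 0 in that comparison, with a median of 0.00.

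**Figure D1:**
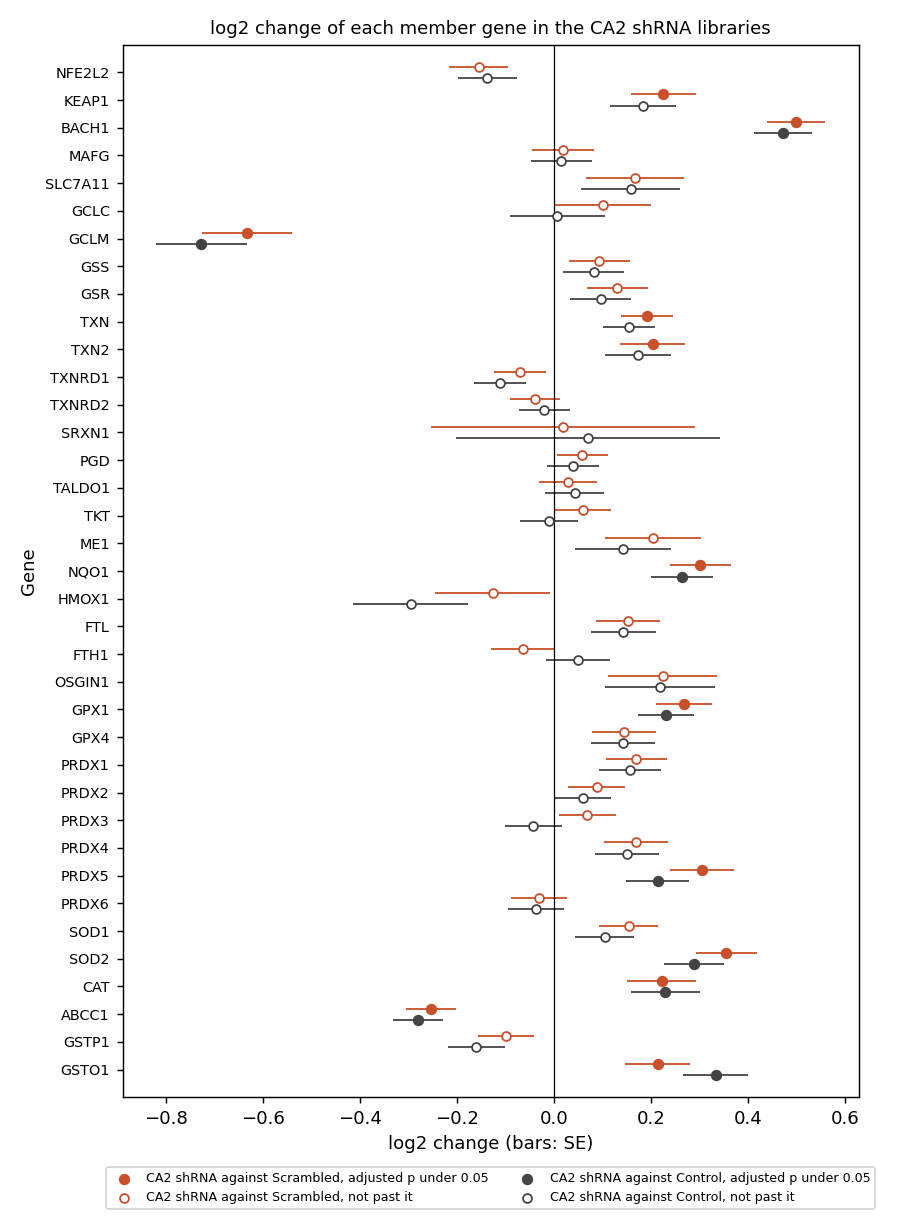
The log2 change of each of the 37 genes in CA2 shRNA against Scrambled and against Control, from the edgeR fit, with bars for the standard error and filled points for genes past the threshold. GCLM lies farthest to the left and BACH1 farthest to the right among the genes past the threshold.

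Of the 37 genes, 11 had all 3 CA2 shRNA libraries above all 6 control libraries (Control and Scrambled together), and 2 had all 3 below. Among all genes, not matched for level, 11.7% lay above and 11.9% below. The 11 were BACH1, TXN, TXN2, NQO1, GPX1, PRDX1, PRDX4, PRDX5, SOD2, CAT and GSTO1. GCLM and ABCC1 were the 2 below.

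CA2 shRNA 2, the shallowest library, was the highest of the 9 libraries in 21 of the 37 genes, where it was the highest in 19.1% of all genes. Scrambled 3 was the lowest of the 9 in 14 of the 37. The count of genes past the threshold against Scrambled was 7 without CA2 shRNA 2 and also 7 without Scrambled 3, each time BACH1, GCLM, NQO1, GPX1, PRDX5, SOD2 and ABCC1. Against Control it was 6 without CA2 shRNA 2, where CAT, GPX1, NQO1 and PRDX5 were lost and GSTP1, which was lower, was gained. The count was also 6 without Control 2, where CAT, GPX1 and PRDX5 were lost. Without both Control 3 and Scrambled 2 the counts were 18 and 16, with all 12 and all 9 genes still among them. The calls over all genes moved with these settings too. Against Scrambled, 1589 genes rose and 1759 fell in the main fit, and 906 and 1382 without CA2 shRNA 2. The numbers were 864 and 1195 without Scrambled 3, and 2407 and 1882 without both Control 3 and Scrambled 2. Against Control, 1269 genes rose and 1637 fell in the main fit, 663 and 1389 without CA2 shRNA 2, and 686 and 1276 without Control 2. BACH1, GCLM, NQO1, GPX1, PRDX5, SOD2 and ABCC1 passed against Scrambled under each of the 19 alternatives run, and BACH1, GCLM, SOD2, ABCC1 and GSTO1 did so against Control.

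**Figure D2:**
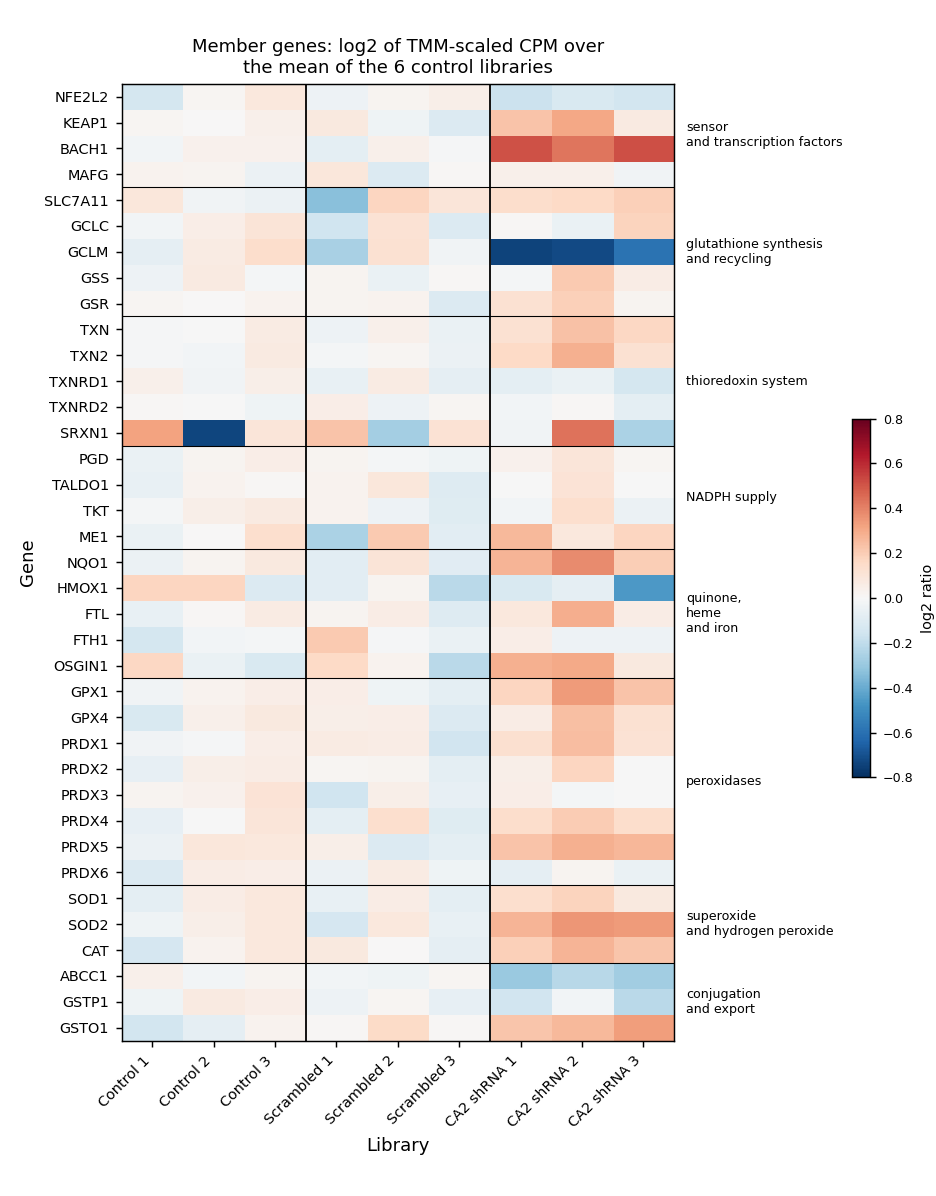
Each cell is the log2 ratio of a gene's TMM-scaled CPM in 1 library to its mean over the 6 control libraries, for the 37 genes in the order of their roles. The GCLM row is low and the BACH1 row is high in all 3 CA2 shRNA libraries, and CA2 shRNA 2 is the highest library in 21 rows.

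Among the sensor and transcription factors, 2 of 4 rose against Scrambled and 1 of 4 against Control. BACH1 (ENSG00000156273, chr21:29194071-29630751, plus strand, GRCh38), the repressor that competes with NRF2, measured 57.1, 59.4 and 59.3 CPM in the Control libraries, 54.9, 59.7 and 57.8 in the Scrambled ones and 82.8, 78.0 and 83.1 in the CA2 shRNA ones. The 3 CA2 shRNA libraries lay close together and well above the 6 others. The mean was 57.5 ± 2.43 in Scrambled and 81.3 ± 2.86 in CA2 shRNA (SD, n = 3). The log2 change was 0.50 (SE 0.06, adjusted p = 1.26e-05) against Scrambled and 0.47 (SE 0.06, adjusted p = 2.37e-05) against Control. BACH1 had the largest increase among the 37.

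KEAP1 (ENSG00000079999, chr19:10486125-10503558, minus strand) measured 91.6, 90.8 and 93 CPM in the Control, 95.6, 88.2 and 83.8 in the Scrambled and 106, 112 and 95.1 in the CA2 shRNA libraries. CA2 shRNA 3 lay within the Scrambled range, so those groups overlapped. The log2 change was 0.23 against Scrambled (SE 0.07, adjusted p = 0.0271) and 0.18 against Control, where it did not pass (adjusted p = 0.079). The call against Scrambled was lost when CA2 shRNA 2 (0.173), Scrambled 3 (0.157), Control 2 (0.0593) or CA2 shRNA 1 (0.051) was left out, with adjusted p between 0.00632 and 0.173 over the 19 alternatives, and KEAP1 passed against Control when CA2 shRNA 3 (0.0168) or Scrambled 2 (0.0255) was left out. With upper-quartile scaling the KEAP1 call against Scrambled was lost too (0.0542). The transcript of NRF2 itself, NFE2L2, averaged 125 ± 9.80 CPM in the Control, 126 ± 3.83 in the Scrambled and 113 ± 1.77 in the CA2 shRNA libraries, a difference that did not pass (log2 change -0.16, adjusted p = 0.091 against Scrambled). MAFG, its small MAF partner, was at 73.5 ± 2.20, 73.3 ± 5.20 and 74.3 ± 2.10 CPM. MAFG passed in none of the alternatives, while NFE2L2 passed against Scrambled without Scrambled 1 (0.0496) and against Control without Control 1 (0.0392). An mRNA level does not measure the amount of NRF2 protein or where it is in the cell.

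Glutathione synthesis held the gene with the largest decrease. GCLM (ENSG00000023909, chr1:93885199-93909456, minus strand) encodes the modifier subunit of glutamate-cysteine ligase, the rate-limiting enzyme of glutathione synthesis. It measured 35.4, 39.0 and 41.0 CPM in the Control, 31.1, 40.5 and 36.4 in the Scrambled and 22.3, 22.6 and 24.7 in the CA2 shRNA libraries. Every CA2 shRNA library lay below every control library. Its level with the hairpin, 23.2 ± 1.36 CPM, was 64.4% of that in Scrambled (36.0 ± 4.72) and 60.3% of that in Control (38.5 ± 2.85). The log2 change of GCLM was -0.63 with Scrambled as the reference (SE 0.09, adjusted p = 0.000122) and -0.73 with Control as the reference (SE 0.09, adjusted p = 2.77e-05).

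The catalytic subunit of the same ligase, GCLC, did not pass in either comparison; whether its change differs from that of GCLM was not tested. GCLC averaged 15.3 ± 0.679 CPM in the Control, 14.3 ± 1.49 in the Scrambled and 15.3 ± 1.27 in the CA2 shRNA libraries (log2 change 0.10, SE 0.10, adjusted p = 0.55 against Scrambled). SLC7A11, the cystine importer that feeds the pathway, was at 53.6 ± 2.81, 53.1 ± 9.41 and 59.8 ± 1.04 CPM and did not pass either (adjusted p = 0.308 against Scrambled). Scrambled 1 was its lowest library, at 42.4 CPM, and SLC7A11 did pass without Scrambled 2 (adjusted p = 0.0339). GSS, which adds glycine in the last step of synthesis, was at 97.5 ± 3.99, 96.7 ± 2.64 and 103 ± 8.36 CPM, and GSR, which returns oxidised glutathione to its reduced form, was at 71.0 ± 0.671, 69.4 ± 3.64 and 76.1 ± 4.40 CPM. Neither passed.

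In the thioredoxin system 2 of 5 genes rose against Scrambled and none passed against Control. TXN (ENSG00000136810, chr9:110243810-110256507), the cytosolic thioredoxin, measured 136, 137 and 143 CPM in the Control, 133, 141 and 132 in the Scrambled and 149, 161 and 154 in the CA2 shRNA libraries. TXN2 (ENSG00000100348, chr22:36467046-36481640), its mitochondrial counterpart, was at 38.7, 38.4 and 40.9, then 38.6, 39.4 and 37.6, then 43.5, 47.4 and 42.3 CPM. For both genes the CA2 shRNA libraries lay above all 6 others, with CA2 shRNA 2 the highest. The log2 changes against Scrambled were 0.19 for TXN (SE 0.05, adjusted p = 0.0207) and 0.20 for TXN2 (SE 0.07, adjusted p = 0.0473), and against Control 0.15 (adjusted p = 0.067) and 0.17 (adjusted p = 0.10).

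The TXN call was lost when Scrambled 3 (0.107), CA2 shRNA 2 (0.0976) or Scrambled 1 (0.0589) was left out, in a range of 0.0061 to 0.107 over the alternatives. The TXN2 call held in 8 of 19 alternatives, in a range of 0.023 to 0.215, and did not survive leaving out CA2 shRNA 2 (0.215), Scrambled 3 (0.171), Control 2 (0.0915), Scrambled 1 (0.0823), Control 3 (0.0613) or Control 1 (0.054). The TXN2 call was also lost with upper-quartile scaling (0.068), no filter on low counts (0.0771) or limma-voom (0.0536). So it was with the replicate block (0.0592) and with only the 2 groups compared (0.0685). Against Control, TXN passed without Scrambled 2 (0.0205) or CA2 shRNA 1 (0.0348) and TXN2 without Scrambled 2 (0.0399). The thioredoxin reductases, which use NADPH to reduce these proteins, did not pass. TXNRD1 was at 421 ± 11.5, 409 ± 21.7 and 389.5 ± 12 CPM in the Control, the Scrambled and the CA2 shRNA libraries, and TXNRD2 at 167 ± 2.75, 169 ± 5.73 and 164 ± 5.18. SRXN1, which repairs overoxidised peroxiredoxins, lay between 1.07 and 2.41 CPM, and at 22 to 65 counts a library it was the least precisely measured of the 37. Of its exon bases 90.7% are shared with another annotated gene on the same strand, so its value is uncertain.

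None of the 4 NADPH-supplying genes passed in either comparison. PGD, the second NADPH-producing enzyme of the pentose phosphate pathway, was at 135 ± 5.07, 134 ± 2.48 and 139 ± 4.29 CPM in the Control, the Scrambled and the CA2 shRNA libraries. TALDO1 and TKT, which interconvert the pathway's sugars in its non-oxidative branch, were at 175 ± 5.88, 176 ± 12.1 and 180.0 ± 8.37 CPM and at 1289.7 ± 40.4, 1229 ± 54.5 and 1281 ± 89.9 CPM. ME1, the cytosolic malic enzyme, was at 40.7 ± 2.75, 39 ± 6.45 and 45 ± 2.68 CPM (log2 change of 0.20, SE 0.10, adjusted p = 0.19 against Scrambled). Without Scrambled 2, which had the highest of the control values of ME1 (46.1 CPM), ME1 passed against Scrambled (adjusted p = 0.00269).

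Of the quinone, heme and iron genes, 1 of 5 rose in each comparison. NQO1 (ENSG00000181019, chr16:69706996-69726668, minus strand), the quinone reductase most often used to read NRF2 activity, measured 248, 260.0 and 271 CPM in the Control, 242, 275 and 241 in the Scrambled and 309, 333 and 294 in the CA2 shRNA libraries. All 3 CA2 shRNA libraries lay above all others. The log2 change was 0.30 against Scrambled (SE 0.06, adjusted p = 0.00287) and 0.26 against Control (SE 0.06, adjusted p = 0.00824). The call against Control was lost without CA2 shRNA 2 (0.0687), in a range of 0.000266 to 0.0687 over the alternatives.

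HMOX1, the heme oxygenase and like NQO1 a classical NRF2 target, did not pass, with lower values in CA2 shRNA. It averaged 14.6 ± 1.57 CPM in the Control, 12.9 ± 1.06 in the Scrambled and 11.9 ± 1.67 in the CA2 shRNA libraries (log2 change -0.13, adjusted p = 0.53 against Scrambled, and -0.30, adjusted p = 0.11 against Control). Against Control HMOX1 passed with the replicate number as a block (0.0473) and without both Control 3 and Scrambled 2 (0.0336). OSGIN1, a growth inhibitor induced by oxidative stress, was at 13.2 ± 1.41, 13.2 ± 1.70 and 15.4 ± 1.29 CPM. The ferritin chains FTL (1279 ± 53.4, 1271 ± 73.3 and 1413 ± 129.6 CPM) and FTH1 (317 ± 15.2, 343 ± 34.3 and 328 ± 12.2 CPM), which store iron, did not pass. FTH1 shares 63.2% of its exon bases with BEST1 on the opposite strand, and the sources used here do not give the strand setting of the counting.

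Among the 8 peroxidases GPX1 and PRDX5 rose in both comparisons and none fell. GPX1 (ENSG00000233276, chr3:49357176-49358358), the selenoprotein that reduces hydrogen peroxide with glutathione, measured 153, 159 and 161 CPM in the Control, 161, 152 and 148 in the Scrambled and 176, 197 and 183 in the CA2 shRNA libraries. PRDX5 (ENSG00000126432, chr11:64318121-64321811), a peroxiredoxin found in mitochondria and peroxisomes, was at 51.0, 56.0 and 55.7, then 54.2, 48.8 and 49.9, then 61.5, 64.1 and 63.2 CPM. The CA2 shRNA libraries lay above all 6 others for both genes. Against Scrambled the log2 changes were 0.27 for GPX1 (SE 0.06, adjusted p = 0.00342) and 0.31 for PRDX5 (SE 0.07, adjusted p = 0.0032), and against Control 0.23 (adjusted p = 0.0102) and 0.21 (adjusted p = 0.0339).

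Against Control the GPX1 call was lost without Control 2 (0.0551) or CA2 shRNA 2 (0.0771), in a range of 0.00259 to 0.0771. That of PRDX5 was lost when Control 1 (0.146), CA2 shRNA 2 (0.138), Control 2 (0.0928), Control 3 (0.0627), CA2 shRNA 3 (0.0593) or Scrambled 3 (0.054) was left out, in a range of 0.00898 to 0.146. Without a filter on low counts the PRDX5 call was lost too (0.0507). PRDX1 (129 ± 3.78, 128 ± 10.6 and 144 ± 7.21 CPM) and PRDX4 (160.0 ± 9.16, 158 ± 14.5 and 178 ± 4.41 CPM), the cytosolic and the endoplasmic reticulum peroxiredoxin, had CA2 shRNA libraries above all others but did not pass (adjusted p = 0.0781 and 0.088 against Scrambled). Without Scrambled 2, PRDX1 passed against Scrambled (0.0227) and Control (0.0391), as did PRDX4 (0.00344 and 0.0275), and PRDX1 also passed against Scrambled without Scrambled 1 (0.0487). GPX4, which reduces lipid peroxides, was at 332 ± 24.3, 331 ± 20.2 and 366 ± 24 CPM, PRDX2 at 1024 ± 48.1, 1004 ± 38.1 and 1067 ± 67.2, PRDX3 of mitochondria at 141 ± 4.72, 131 ± 9.2 and 137 ± 3.65, and PRDX6 at 233 ± 14.8, 232 ± 9.73 and 227 ± 7.6. None of these 4 passed.

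Of the enzymes that remove superoxide and hydrogen peroxide directly, SOD2 and CAT rose in both comparisons. SOD2 (ENSG00000112096, chr6:159669069-159762529, minus strand), the manganese superoxide dismutase of mitochondria, measured 108, 114 and 117 CPM in the Control, 101, 117 and 106 in the Scrambled and 133, 141 and 140.1 in the CA2 shRNA libraries. No CA2 shRNA library overlapped the others. The log2 change was 0.36 against Scrambled (SE 0.06, adjusted p = 0.000571) and 0.29 against Control (SE 0.06, adjusted p = 0.00346). SOD2 shares 0.733% of its exon bases with ACAT2 and 2.41% with WTAP on the opposite strand and 5.18% with SOD2-OT1 on its own, so some of its reads cannot be assigned with certainty.

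CAT (ENSG00000121691, chr11:34438934-34472060), the peroxisomal catalase, measured 42.5, 47.7 and 49.5 CPM in the Control, 49.4, 46.9 and 44.4 in the Scrambled and 53.3, 56.4 and 54.4 in the CA2 shRNA libraries. Its CA2 shRNA libraries lay above the 6 others by a smaller margin than those of SOD2. The log2 change was 0.22 against Scrambled (SE 0.07, adjusted p = 0.0383) and 0.23 against Control (SE 0.07, adjusted p = 0.0358). The first call was lost when Scrambled 3 (0.187), CA2 shRNA 2 (0.153), Control 2 (0.0777) or CA2 shRNA 3 (0.0567) was left out, in a range of 0.0223 to 0.187, and the second when Control 1 (0.17), CA2 shRNA 2 (0.162), Control 2 (0.107) or CA2 shRNA 3 (0.0544) was, in a range of 0.00675 to 0.17. With upper-quartile scaling the CAT call against Scrambled was lost too (0.0595). SOD1, the cytosolic dismutase, was at 112 ± 6.56, 108 ± 5.68 and 120.4 ± 4.36 CPM and did not pass (adjusted p = 0.0969 against Scrambled), although it did without Scrambled 2 (0.0178).

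The conjugation and export genes moved in both directions. ABCC1 (ENSG00000103222, chr16:15949577-16143074, plus strand), the pump MRP1 that exports glutathione conjugates and oxidised glutathione, measured 157, 150.4 and 155 CPM in the Control, 150.2, 149 and 154 in the Scrambled and 124, 131 and 126 in the CA2 shRNA libraries. Its replicates were tight and the groups did not overlap. The log2 change of ABCC1 was -0.25 with Scrambled as the reference (SE 0.05, adjusted p = 0.00204) and -0.28 with Control as the reference (SE 0.05, adjusted p = 0.000926).

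GSTO1 (ENSG00000148834, chr10:104235356-104267459), an omega-class glutathione transferase with thioltransferase activity, measured 53.4, 56.4 and 60.3 CPM in the Control, 59.7, 65.8 and 59.5 in the Scrambled and 69.1, 71.0 and 74.5 in the CA2 shRNA libraries. The CA2 shRNA libraries lay above all others. Its log2 change was 0.21 against Scrambled (SE 0.07, adjusted p = 0.0348) and 0.33 against Control (SE 0.07, adjusted p = 0.00195), and Scrambled itself was 0.12 above Control, which did not pass. The call against Scrambled was lost when Scrambled 3 (0.157), CA2 shRNA 2 (0.0908), CA2 shRNA 3 (0.0835), Scrambled 1 (0.0916) or Control 2 (0.0723) was left out, in a range of 0.00396 to 0.157. GSTP1, the pi-class transferase, was at 203 ± 7.69, 195 ± 5.47 and 182 ± 12.6 CPM and did not pass (log2 change -0.16, adjusted p = 0.0777 against Control), although it did against Control without CA2 shRNA 2 (0.0167) or Scrambled 1 (0.0371).

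**Figure D3:**
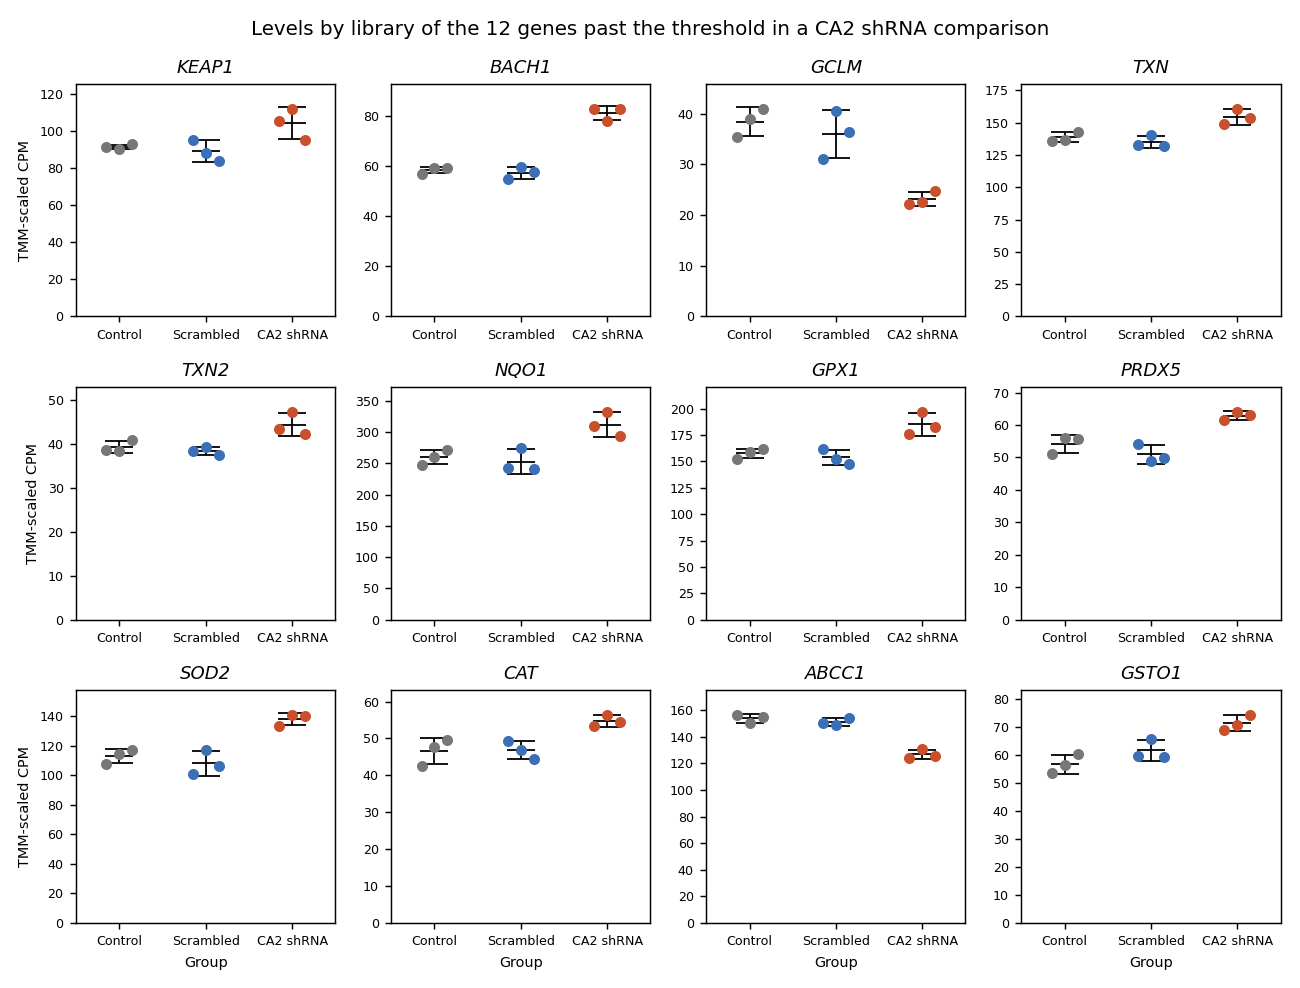
TMM-scaled CPM of the 12 genes past the threshold in either CA2 shRNA comparison, with 1 point per library and bars for the mean and SD of the 3 libraries of a group, on axes that start at 0. GCLM and ABCC1 are lower in all 3 CA2 shRNA libraries, and in KEAP1 a CA2 shRNA library falls inside the Scrambled range.

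The 25 genes that passed in neither comparison had log2 changes between -0.16 and 0.22 against Scrambled and between -0.30 and 0.22 against Control, with standard errors of 0.05 to 0.27. Changes of the size seen in CAT or TXN2 could be missed in the less precise of these.

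Per kilobase of exon, the members spanned a wide range. By the mean deposited RPKM over the 9 libraries the order began with FTL at 1513, PRDX2 at 506, GPX4 at 169.5, FTH1 at 164, TXN at 141 and GPX1 at 139.7. The first 6 are an iron store and enzymes or carriers that handle peroxide. The lower end held GCLM at 5.99, SLC7A11 at 5.75, HMOX1 at 5.71, OSGIN1 at 2.5, GCLC at 1.74 and SRXN1 at 0.718. In the Control libraries the 2 ligase subunits stood at 7.06 ± 0.491 RPKM for GCLM and 1.77 ± 0.0709 for GCLC. HMOX1 (6.33 ± 0.686 RPKM) and SLC7A11 (5.54 ± 0.326 RPKM) did not differ there beyond their spread. Reads of FTL, FTH1, TXN, GPX1 and PRDX1 may be shared with their processed pseudogenes, and the sources used here do not say how reads that map to several places were counted.

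**Figure D4:**
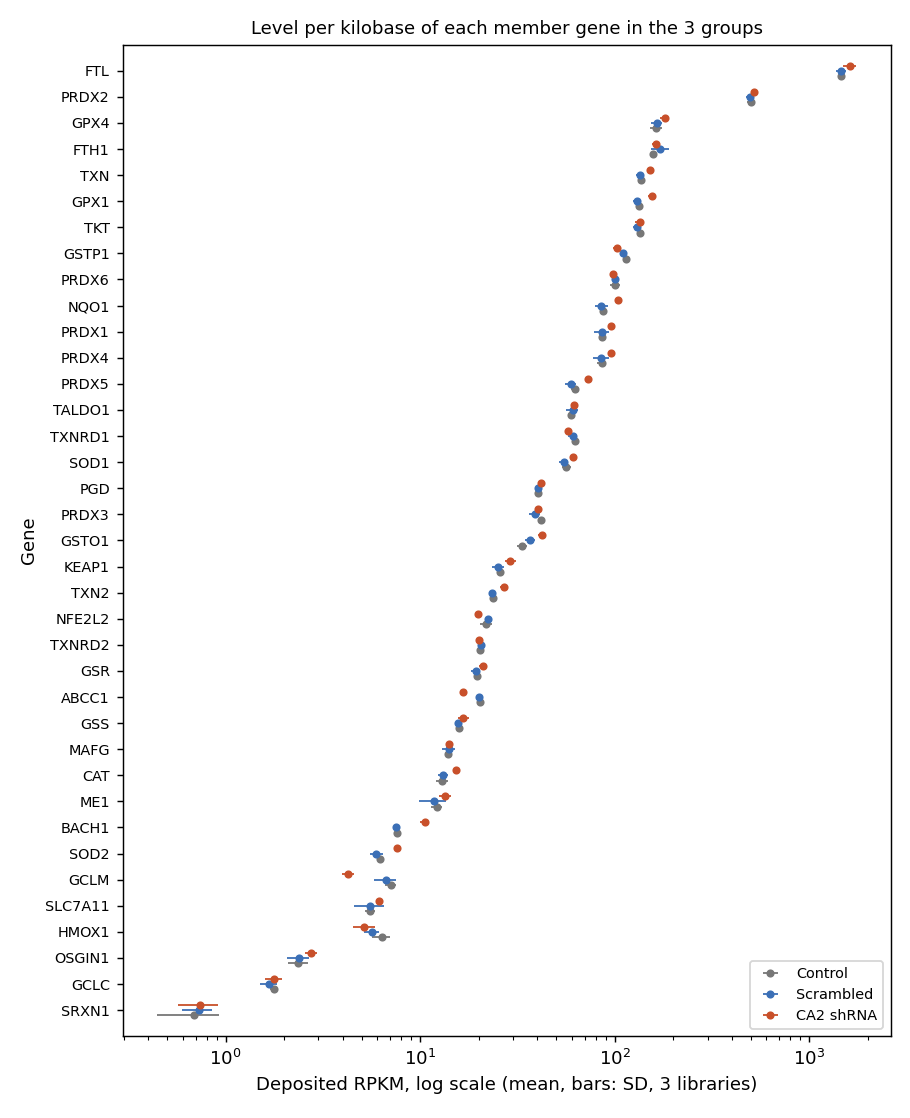
Deposited RPKM of the 37 genes on a log axis, as the mean and SD of the 3 libraries of each group, ordered by the mean of all 9. FTL is at the top and SRXN1 at the bottom, and the shift of GCLM between groups is small beside the differences between genes.

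The antioxidant response element was looked for near the gene starts, since NRF2 and BACH1 both bind it. The letters searched were TGACNNNGC on both strands, in RefSeq windows of 300 bases (250 before to 50 after a start, GRCh38.p14). They occurred in 13.3% of 35116 windows and in 8 of the 40 windows of the 27 members that matched the table, and by gene in 16.1% of 27305 genes and in 7 of the 27 members. The 7 were GCLM, GSTO1, GSTP1, KEAP1, ME1, PGD and TXNRD1. These include genes that fell (GCLM), rose (GSTO1, and KEAP1 against Scrambled) and did not pass (GSTP1, ME1, PGD and TXNRD1). A match is a description and does not show binding. Members that did not match the table were not searched, and a site outside these windows would be missed. GSTO1, KEAP1 and ME1 hold 2 matches each and TXNRD1 holds 3. The sequences below show 1 match in each of 6 genes, picked after the matches were seen to set like letters in genes of unlike response side by side, 5′ to 3′ with the 9 matched letters in capitals. They lie at chr1:93909440-93909480 (plus strand, opposite to the gene), chr19:10502778-10502818 (plus strand, opposite to the gene), chr10:104254650-104254690 (plus), chr11:67583730-67583770 (plus), chr6:83431164-83431204 (minus) and chr12:104215664-104215704 (plus), in the order of the lines.
GCLM: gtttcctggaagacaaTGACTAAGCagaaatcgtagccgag
KEAP1: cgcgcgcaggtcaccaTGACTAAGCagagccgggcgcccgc
GSTO1: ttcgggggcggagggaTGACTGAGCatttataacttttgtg
GSTP1: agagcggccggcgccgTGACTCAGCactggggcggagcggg
ME1: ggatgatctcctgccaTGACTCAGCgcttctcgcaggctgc
TXNRD1: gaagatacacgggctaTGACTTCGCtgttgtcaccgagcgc
The 9 letters shown are identical in GCLM, which fell, and KEAP1, which rose against Scrambled, at 34 and 31 bases before the start. Those shown are also identical in GSTP1 and ME1, neither of which passed. The other matches differ from these, with TGACACGGC in KEAP1 and TGACGGTGC in ME1.

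A further sequence feature was read in the 3′ UTRs because earlier results of these data pointed to it: the 7-letter runs ACACCAA and CACCAAA, searched on the transcript strand in the longest annotated 3′ UTR of each gene (GENCODE 29). Of 2613 tested genes that hold either run, 26.7% fell and 5.24% rose against Scrambled, beside 7.05% and 12.7% of the 11351 that hold neither. Against Control the shares were 27.5% and 4.67%, beside 6.54% and 9.92%. Since the runs were picked from these same data, these shares only describe the data and cannot test the runs. The length of the 3′ UTR, 13436 bases in SOD2, 3785 in GCLM and 3315 in BACH1, was not taken into account. Among the 37 genes, 3 hold a run: GCLM, which fell, and BACH1 and SOD2, which rose. ABCC1, the other gene that fell, holds neither. Of the 34 genes with neither run, 1 fell and 8 rose against Scrambled. GCLC holds neither run. Of the list genes named below, FBXW11, TRIM16, TRIM16L and ABCC3, which fell against Scrambled, hold a run. So do STEAP3, which fell against Control, and BTRC and TXNIP, which rose. PIR, IDH1, H6PD, ALDH1L2 and VDAC2, which fell against Scrambled, hold neither. Whether the runs bear on any of these changes was not tested. Sites in GCLM, BACH1 and SOD2, 1 of them for SOD2 although it holds more, are printed with the run in capitals. These sites lie at chr1:93885622-93885649 and chr1:93886075-93886101 (minus strand) for GCLM, chr21:29344245-29344271 (plus) for BACH1, and chr6:159669317-159669344 (minus) for SOD2.
GCLM site 1: atattcaaatACACCAAAttaaaattct
GCLM site 2: aaactgtagtCACCAAAagcaacaagt
BACH1 site: gtgttgatttCACCAAAatcagagggc
SOD2 site: attgcactttACACCAAAtggacctgac

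The other genes of these pathways were read from 9 lists of 139 genes, of which 133 were tested. Against Scrambled 20 rose, 12 fell and 101 did not pass, and against Control 17 rose and 14 fell. Over all genes 8.02% rose and 8.88% fell against Scrambled, and 6.41% and 8.26% against Control. The counts of each list below are to be read beside these shares, and no list was tested as a set. No list gene passed between Scrambled and Control.

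The regulators of NRF2 other than the members split evenly, with 4 of 12 higher and 4 lower against Scrambled (median log2 change -0.06), and 3 higher and 4 lower against Control (median -0.12). BTRC and FBXW11 encode the paired substrate adaptors (beta-TrCP1 and beta-TrCP2) that mark NRF2 for degradation apart from KEAP1, and they went in opposite directions. BTRC rose from 64.1 ± 3.68 CPM in Scrambled to 91.9 ± 4.40 (log2 change 0.52, adjusted p = 1.78e-05), while FBXW11 dropped from 105 ± 5.08 to 67.6 ± 3.90 (log2 change -0.63, adjusted p = 1.51e-06). TRIM16L and TRIM16 fell as well, from 43.1 ± 2.81 to 29.3 ± 1.87 CPM (log2 change of -0.55) and from 18.0 ± 2.65 to 13.9 ± 1.07 CPM (log2 change of -0.38, adjusted p = 0.0236). They are close copies whose reads may be split. The TRIM16 call was lost when CA2 shRNA 3 (0.157), Scrambled 2 (0.0903), CA2 shRNA 1 (0.0633) or Scrambled 1 (0.0502) was left out, in a range of 0.0043 to 0.157.

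Of 16 further genes known as NRF2-responsive, 2 rose and 2 fell in each comparison (median log2 change 0.04 against Scrambled). ABCC3, another exporter of conjugates and of the same family as ABCC1, fell from 38.4 ± 5.19 to 24 ± 1.86 CPM (log2 change of -0.68, adjusted p = 8.08e-05), and PIR, an iron-binding nuclear protein, from 45 ± 3.71 to 33.3 ± 1.13 CPM (log2 change of -0.44, adjusted p = 0.000711). TXNIP, which binds and inhibits thioredoxin, rose from 33.6 ± 1.29 to 50.5 ± 3.14 CPM (log2 change of 0.59, adjusted p = 2.28e-05). UGDH, which makes UDP-glucuronate, rose by 0.21 on the log2 scale (adjusted p = 0.017), and its call was lost when Scrambled 3 (0.084), Scrambled 1 (0.0589) or CA2 shRNA 2 (0.0585) was left out, in a range of 0.00271 to 0.084.

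In glutathione metabolism outside the members few genes passed. Of 24 genes 2 rose and none fell against Scrambled, and 1 rose and 2 fell against Control. GLRX5, a mitochondrial glutaredoxin of iron-sulfur assembly, rose from 55.9 ± 1.34 to 67.5 ± 3.12 CPM (log2 change of 0.27, adjusted p = 0.00848). GGCT, which splits gamma-glutamyl peptides, rose by 0.46 on the log2 scale (adjusted p = 0.0224), a call lost when Scrambled 3 (0.138), CA2 shRNA 3 (0.0787), CA2 shRNA 2 (0.0692) or Scrambled 1 (0.0606) was left out, in a range of 0.000491 to 0.138. None of the 13 tested glutathione transferases outside the members passed. GSTK1 (48.6 ± 3.27 CPM in Scrambled, 48.1 ± 1.59 in CA2 shRNA) and GSTT2B (48.9 ± 3.36 and 48.4 ± 1.32 CPM) had the highest levels.

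In the wider NADPH supply 5 of 18 genes fell and 2 rose against Scrambled (median log2 change -0.03), and 4 fell and 1 rose against Control (median -0.01). IDH1, the cytosolic isocitrate dehydrogenase, fell from 53.2 ± 3.96 to 38.5 ± 0.929 CPM (log2 change of -0.47, adjusted p = 0.000444, and -0.50 against Control), and H6PD, which makes NADPH in the endoplasmic reticulum, from 93.6 ± 2.55 to 72.3 ± 4.23 CPM (log2 change of -0.37, adjusted p = 0.000921). Both had CA2 shRNA libraries below every control library. ALDH1L2, a mitochondrial folate enzyme, fell by 0.29 (adjusted p = 0.0375) with overlapping groups. Its call was lost when CA2 shRNA 1 (0.204), Scrambled 2 (0.15), Scrambled 3 (0.147) or CA2 shRNA 2 (0.124) was left out, in a range of 0.0012 to 0.204. The call was also lost with DESeq2 size factors (0.0508), limma-voom (0.0587) or only the 2 groups compared (0.0672). RPIA, the ribose 5-phosphate isomerase of the pentose phosphate pathway, rose by 0.27 (adjusted p = 0.0285), a call lost without Scrambled 3 (0.122) or any of CA2 shRNA 1 (0.0523), 2 (0.0561) and 3 (0.0671), in a range of 0.0172 to 0.122.

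Thioredoxin-like and repair proteins had 2 of 15 genes higher and none lower against Scrambled (3 and 0 against Control). TXNDC17, a thioredoxin-like oxidoreductase, rose from 20.2 ± 3 to 29.6 ± 1.05 CPM (log2 change of 0.56, adjusted p = 0.000597), and SESN2, a stress-induced sestrin, from 18.9 ± 2.5 to 27.2 ± 0.786 CPM (log2 change of 0.53, adjusted p = 0.000706). Among superoxide sources and copper proteins 2 of 10 rose. MT1E, a metallothionein, rose from 43.4 ± 3.17 to 54.2 ± 2.25 CPM (log2 change of 0.32, adjusted p = 0.00705). XDH, the xanthine dehydrogenase, rose from 1.39 ± 0.109 to 2.35 ± 0.151 CPM (log2 change of 0.75, adjusted p = 0.0258), a call lost when Scrambled 3 (0.102), CA2 shRNA 2 (0.0732), CA2 shRNA 1 (0.0712) or Scrambled 1 (0.0689) was left out, in a range of 0.0163 to 0.102.

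Heme and iron handling had 4 of 12 genes higher and none lower against Scrambled, and 4 higher and 1 lower against Control, while the ferritin chains FTL and FTH1 did not pass. SLC40A1 (ferroportin), the iron exporter, rose from 3.73 ± 0.451 to 7.73 ± 0.673 CPM (log2 change of 1.04, adjusted p = 3.70e-05). TFRC, the transferrin receptor, rose from 160.2 ± 8.86 to 228 ± 10.4 CPM (log2 change of 0.51, adjusted p = 6.89e-06), SLC11A2, the importer DMT1, from 32.7 ± 0.851 to 44.2 ± 1.57 CPM (log2 change of 0.43) and ACO1, whose protein is the iron regulator IRP1, by 0.25 on the log2 scale to 155 ± 6.19 CPM. The gene that fell against Control was STEAP3, a ferrireductase of transferrin iron uptake, named after its values were seen (log2 change -0.32, adjusted p = 0.0452), and that call held in 5 of the 19 alternatives. In the lipid peroxidation list 2 of 13 rose and 1 fell. GCH1, which makes tetrahydrobiopterin, rose from 13.7 ± 1.10 to 19.6 ± 0.570 CPM (log2 change of 0.51), and SAT1, a polyamine acetyltransferase, from 147 ± 6.58 to 198 ± 10.4 CPM (log2 change of 0.43). VDAC2, a mitochondrial outer membrane channel, fell by 0.22 (adjusted p = 0.00948), which was lost when CA2 shRNA 3 (0.108), Scrambled 2 (0.0691) or CA2 shRNA 1 (0.0552) was left out, in a range of 0.00306 to 0.108.

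**Figure D5:**
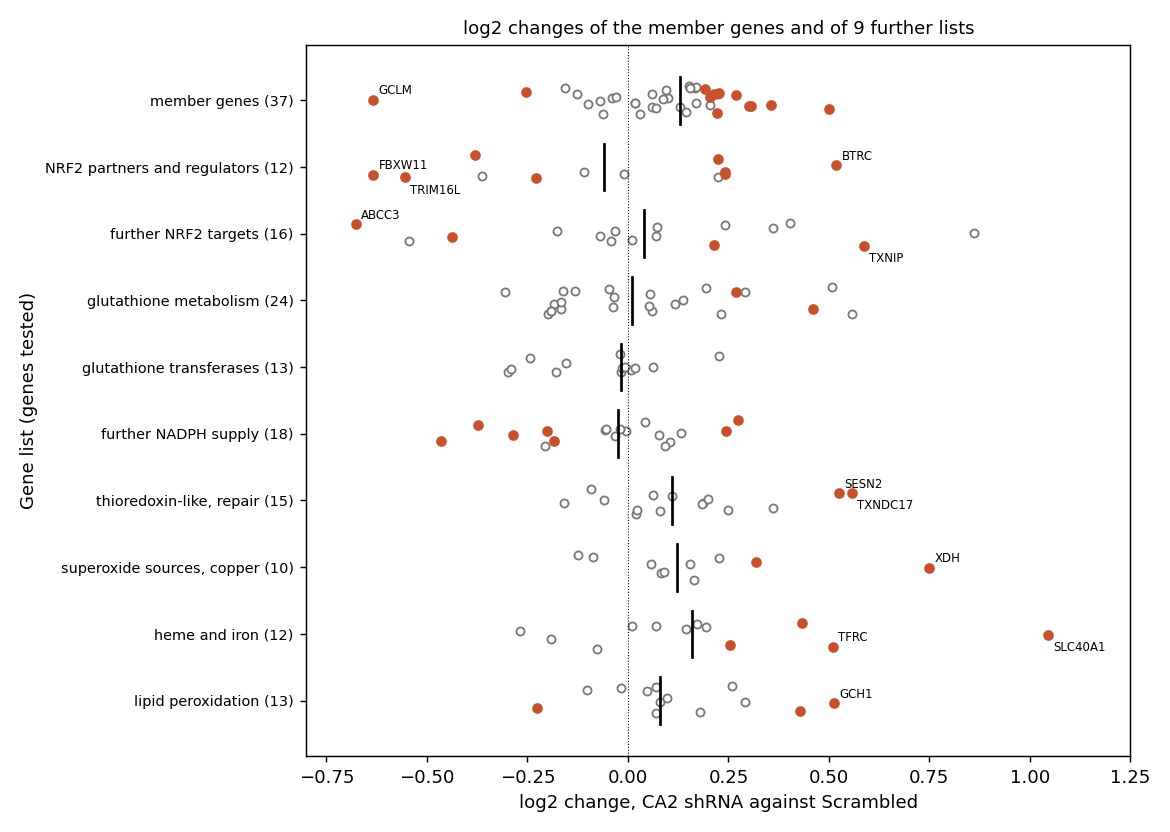
Log2 changes in CA2 shRNA against Scrambled of the 37 genes and of the tested genes of 9 lists, 1 point per gene, filled where past the threshold, with a vertical bar at each list's median. Heme and iron genes past the threshold all lie to the right of 0, and in the NADPH supply list 5 of 7 lie to the left.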

How the data were processed

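RNA of 9 libraries (3 Control, 3 Scrambled, 3 CA2 shRNA) was measured. Per the submitters' processing notes, bcl2fastq, STAR 2.5.1a and featureCounts 1.4.6-p5 (Subread) were used with GRCh38, and per the labels' protocols RNA was extracted with RNeasy Mini and treated with FastSelect. The sources used here do not give the annotation release, the strand setting or the handling of multimapping reads. Per the file headers, the authors deposited each gene's raw read count, the CPM and the RPKM; recomputing the CPM and RPKM from the counts and exon lengths gave the same values (largest deviation 4.7e-11).

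Counts were tested with edgeR 4.0.16 in R 4.3.3 (filterByExpr, TMM, quasi-likelihood F test with robust fitting, all 9 libraries in 1 model, 6 residual degrees of freedom), with Benjamini-Hochberg adjustment over 19812 genes and a threshold of 0.05. The test was checked on simulated data with independent libraries and the same spread for every gene. Those data held no likeness between particular control libraries, so the check does not cover the likeness given below. The biological coefficient of variation was 7.94% and TMM factors were 0.977 to 1.012. Totals of 16994368 to 34261244 counts limit precision for genes near 1 CPM. Libraries differed beyond sampling noise (chi-square per gene at least 3.7), so none was a duplicate. The lowest values joined libraries of different control groups, 3.70 for Control 3 with Scrambled 2 and 3.96 for Control 1 with Scrambled 3. Within groups the value was at least 4.64, and it reached 14.36 for Control 1 with Control 3. Symbols came from a reference table (60401 IDs) and GENCODE 29 (246 IDs).

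There were 19 alternatives: other scalings and filters, DESeq2 1.42.0, limma-voom (limma 3.58.1), a replicate block, only the 2 groups compared, leaving out each library, and leaving out Control 3 with Scrambled 2. The members, lists and tests were chosen with earlier results of these data known. Values per library are given for members past the threshold in a CA2 shRNA comparison. Of each list up to 4 genes past the threshold against Scrambled with the largest log2 change are named, or otherwise the 2 with the highest CPM.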

Additional observations from a re-analysis of the deposited data

How the results depend on the processing

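Main counts of the 37 genes past the threshold were 12 against Scrambled, 9 against Control, 9 with 1 sign in both comparisons and 0 between Scrambled and Control. Leaving out 1 library at a time gave 7 to 17, 6 to 14, 4 to 14 and 0 to 0. The other 10 alternatives gave 10 to 18, 8 to 16, 8 to 14 and 0. Without both Control 3 and Scrambled 2 there were 16 against Control and 14 in both, where fewer libraries entered the fit. Over all genes 1752 rose and 1461 fell against Control in that setting (main 1269 and 1637). The cause was not tested. In both comparisons together, 5 genes passed without Control 2, 4 without CA2 shRNA 2 and 14 without Scrambled 2. With the replicate block there were 11, 10 and 9, and over all genes 1638 rose and 1784 fell against Scrambled (main 1589 and 1759). Same-numbered libraries deviated from their group means with correlations of -0.185 to 0.105, so the numbers were not taken to pair libraries. The highest correlation between libraries of different groups was 0.301, for Control 3 with Scrambled 2. For the 37 genes in the 2 CA2 shRNA comparisons, 1406 values were computed under an alternative: 1320 stayed on their side of the threshold, 43 lost a call and 43, in 13 genes, gained one. At the depth here SRXN1 (22 to 65 counts a library) is the most limited.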
